A study of Mus musculus with 6 samples.

Results

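Interferon-stimulated genes are the genes that a cell switches on after an interferon binds its receptor. The 48 described here were taken by gene name from a table of 55840 mouse genes, and all 48 names were found in it. They comprise 41 genes typical of the type I interferon response and 7 GTPases of the guanylate-binding protein (GBP) and immunity-related GTPase (IRG) families. The table holds RNA-seq of regulatory T cells (Tregs), a lineage of CD4 T cells that Foxp3 specifies and that restrains immune responses. Its 6 libraries split into 3 of wild-type (WT) and 3 of Exon2KO genotype. In the series' title the mutant cells are Foxp3∆2 Tregs, and cells of both genotypes are placed in spleen and LNs. No treatment is named for either genotype, so the design asks how Tregs with this Foxp3 allele differ from WT Tregs. Age, sex, strain, the way the allele was made, the way the cells were purified and the number of animals behind a library are not given in the labels. The labels call the libraries biological replicates and do not name animals, so p-values measure only the spread between these libraries. The columns of the table carry the numbers 2, 6 and 20 in each genotype, which differ from the replicate numbers of the labels, and their meaning is not stated. Libraries are named here by genotype and column number, as in WT 20.

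Type I interferons bind a receptor made of Ifnar1 and Ifnar2 and act through a complex that includes Stat2 and Irf9 and binds the interferon-stimulated response element in the promoters of antiviral genes. Interferon gamma binds Ifngr1 and Ifngr2 and acts through factors that bind gamma-activated sites. GBP and IRG genes are classical targets of interferon gamma and also respond to type I interferon, and their products attack the vacuoles of intracellular parasites and bacteria. T cells carry both receptors, and in Tregs both interferons are known to alter suppressive function.

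Promoter sequences show how widely the response element is shared. RefSeq promoters of build GRCm38.p6, which run from 250 bases before to 50 bases after a gene's start, were matched by symbol for 36 of the 48 genes. In 30 of the 36 the start lay within 100 bases of the 5′ end of the deposited gene. The letters GAAA repeated after a gap of any 2 bases, the core of the response element, were found on either strand in 18 of the 36 promoters (50%), against 3.44% of all 32851 promoter windows. Among the genes with a promoter they stood in 13 of 31 type I type genes (41.9%) and in 5 of 5 GTPases. The letters TTCNNNGAA, the core of a gamma-activated site, read the same on both strands and were found in 8 of the 36 (22.2%), against 8.30% of all windows. Both motifs can share bases. The 6 promoters below belong to genes on which the results turn: 3 of the type I type, which were highest in the libraries numbered 20, and 3 GBP genes of 1 cluster, which were lower in Exon2KO. They are written 5′ to 3′ along the gene with both motifs in capitals. The windows are chr4:156200769-156201068 (minus strand) for Isg15, chr19:34640639-34640938 (plus) for Ifit1, chr5:120777610-120777909 (minus) for Oas3, chr3:142620413-142620712 (plus) for Gbp2, chr3:142559794-142560093 (plus) for Gbp3 and chr3:142530086-142530385 (plus) for Gbp7.
Isg15: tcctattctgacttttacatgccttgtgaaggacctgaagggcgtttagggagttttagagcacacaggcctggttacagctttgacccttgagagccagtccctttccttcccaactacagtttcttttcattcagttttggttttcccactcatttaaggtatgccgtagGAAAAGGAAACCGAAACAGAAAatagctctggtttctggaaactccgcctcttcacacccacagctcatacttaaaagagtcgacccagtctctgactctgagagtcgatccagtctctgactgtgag
Ifit1: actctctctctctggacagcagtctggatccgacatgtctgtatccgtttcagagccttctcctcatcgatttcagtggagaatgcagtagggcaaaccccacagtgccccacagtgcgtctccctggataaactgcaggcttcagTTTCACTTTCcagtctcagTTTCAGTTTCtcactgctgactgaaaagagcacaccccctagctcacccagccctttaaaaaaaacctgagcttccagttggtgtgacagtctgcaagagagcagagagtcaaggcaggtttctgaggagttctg
Oas3: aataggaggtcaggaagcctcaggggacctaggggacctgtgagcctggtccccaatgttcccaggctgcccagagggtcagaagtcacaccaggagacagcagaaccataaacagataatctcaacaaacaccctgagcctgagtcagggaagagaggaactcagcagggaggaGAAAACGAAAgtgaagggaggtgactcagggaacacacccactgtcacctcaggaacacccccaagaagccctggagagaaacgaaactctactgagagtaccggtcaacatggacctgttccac
Gbp2: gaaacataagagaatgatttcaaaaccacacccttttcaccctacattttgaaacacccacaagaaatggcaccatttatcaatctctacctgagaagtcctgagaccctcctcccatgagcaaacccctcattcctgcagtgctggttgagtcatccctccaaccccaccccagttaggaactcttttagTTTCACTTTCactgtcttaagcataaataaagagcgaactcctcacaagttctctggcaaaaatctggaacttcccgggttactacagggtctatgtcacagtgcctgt
Gbp3: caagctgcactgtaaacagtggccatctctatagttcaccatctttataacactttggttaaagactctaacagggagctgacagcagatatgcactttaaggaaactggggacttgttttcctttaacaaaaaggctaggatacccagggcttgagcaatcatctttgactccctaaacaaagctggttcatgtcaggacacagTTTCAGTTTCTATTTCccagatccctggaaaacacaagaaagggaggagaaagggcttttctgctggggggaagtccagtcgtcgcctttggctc
Gbp7: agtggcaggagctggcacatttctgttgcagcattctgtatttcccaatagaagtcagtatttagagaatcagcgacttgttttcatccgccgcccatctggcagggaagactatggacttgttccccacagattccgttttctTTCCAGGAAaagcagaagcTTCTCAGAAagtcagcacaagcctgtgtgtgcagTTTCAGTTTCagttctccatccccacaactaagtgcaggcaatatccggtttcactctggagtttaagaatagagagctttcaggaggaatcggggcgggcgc
Isg15 holds 3 overlapping copies of the GAAA repeat, Ifit1 and Gbp3 hold 2 each, and Oas3, Gbp2 and Gbp7 hold 1 each. TTCNNNGAA stands 2 times in Gbp7 and not in the other 5 windows. These are matches of letters, not measured binding.

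The libraries held between 17998216 and 21003496 counts, so that 3 counts, the limit that a count of 0 allows, correspond to 0.141 to 0.169 CPM (counts scaled to a common library size). Of all genes, 14919 passed the filter on low counts. Exon2KO and WT were compared with edgeR's quasi-likelihood test, with Benjamini-Hochberg adjustment over all tested genes and a threshold of 0.05, without and with the column number as a block. The block was kept as a second fit because libraries of 1 number deviated together from their genotype means over all tested genes, with correlations of 0.271, 0.369 and 0.494. Libraries of unlike number were not correlated, so these values do not establish that the numbers mark pairs. The cells had Treg markers: Foxp3 was at 783, 602 and 751 CPM in WT 2, 6 and 20 and at 826, 684 and 925 CPM in Exon2KO 2, 6 and 20. Its log2 fold change was 0.19 (adjusted p = 0.693, edgeR without the block), and its counts cover the whole gene and do not check the edit of exon 2. Of the other markers on the T cell list, Cd4, Cd3e and Cd3g did not pass, while Il2ra, the high-affinity chain of the IL-2 receptor, Ikzf2 (Helios) and Ctla4, an inhibitory receptor, were lower in Exon2KO. Their log2 fold changes were -0.52, -0.66 and -0.85 (adjusted p = 0.0429, 0.0240 and 0.00677, edgeR without the block), against 1.58% of all tested genes called lower. When any 1 library other than Exon2KO 20 was left out, Il2ra and Ikzf2 missed the threshold (adjusted p up to 0.172 and 0.122), and Ctla4 missed it without Exon2KO 2 (0.0566). The part of these genes in the interferon pattern was not tested. In these bulk libraries, fewer cells of a type and less RNA per cell cannot be told apart.

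The type I type genes differed most between column numbers. In the libraries numbered 20 of both genotypes, genes of every antiviral role stood higher than in the libraries numbered 2 and 6, with a median ratio of 1.73 in WT and 1.59 in Exon2KO over the 40 tested genes. Number 20 was the highest library in both genotypes for 37 of the 40, against 20.1% of all tested genes. Levels differed between column numbers in 33 of the 40 by edgeR's test of the number term, against 10.4% of all tested genes. Among the 7 GTPases number 20 was highest in both genotypes for 0, their median ratios were 1.04 and 0.946, and the number term passed for 2 of 7, Gbp3 and Iigp1, whose lowest libraries were those numbered 20. The difference between these groups of genes was not tested.

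**Figure D1:**
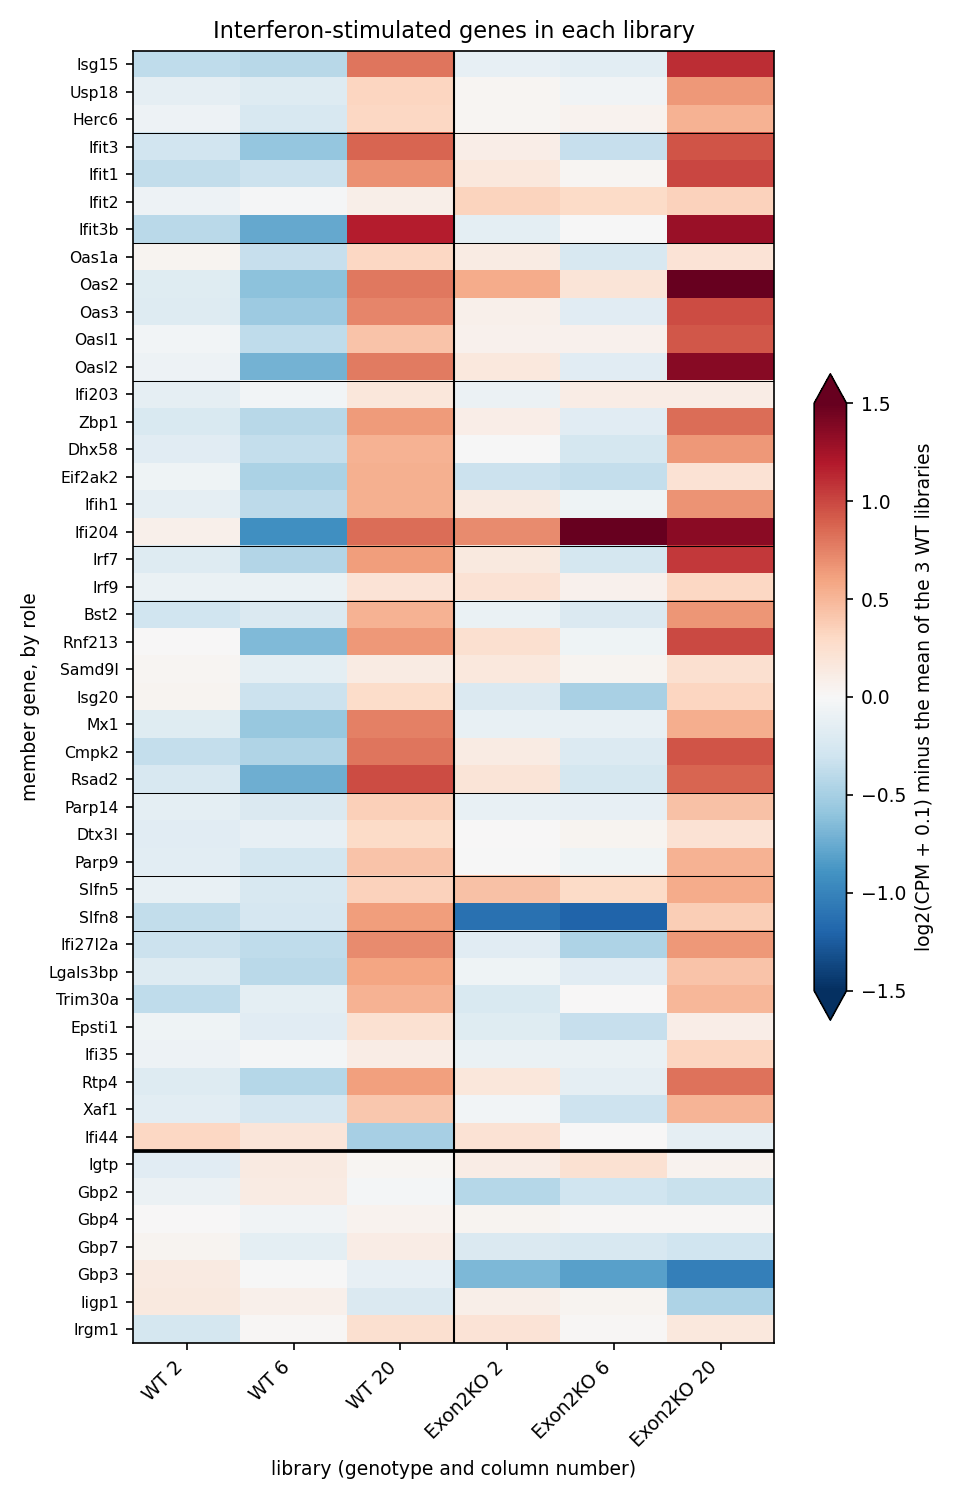
Log2(CPM + 0.1) of the 47 tested genes in each of the 6 libraries, minus the mean of the 3 WT libraries; rows are genes ordered by role, with type I type genes above the thick line and GTPases below it. WT 20 and Exon2KO 20 hold the reddest cell of their genotype for 37 of the 40 type I type genes, and Gbp3, Gbp2 and Gbp7 are blue in all 3 Exon2KO libraries.

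Within a column number, most type I type genes were higher in Exon2KO. The median log2 ratio of Exon2KO to WT over the 40 genes was 0.17 for number 2, 0.22 for number 6 and 0.13 for number 20, and 34, 33 and 29 of the 40 were above 0. Over all 14919 tested genes the medians for numbers 2, 6 and 20 were 0.0058, -0.0046 and 0.013, and 7608, 7337 and 7776 genes were above 0. In all 3 pairs 25 of the 40 were higher, against 21.4% of all tested genes, and 2 were lower, against 20.9%. The differences were small beside the spread between numbers. Without the block, 0 of the 40 passed the test, against 2.33% of all tested genes, 0.757% higher and 1.58% lower, and 2 had an unadjusted p under 0.05, against 12.1% of all tested genes. Of these 40, 34 had a positive log2 fold change, against 51.8% of all tested genes, and their median was 0.17, against 0.0084 over all tested genes. That median depended on single libraries: it was -0.12 without Exon2KO 20, 0.43 without WT 20, 0.28 without Exon2KO 6, 0.049 without WT 2 and 0.031 without WT 6. The number of positive genes was 12 without Exon2KO 20, 26 without WT 2 and 25 without WT 6. It was 37 without WT 20, 34 without Exon2KO 2 and 36 without Exon2KO 6. With the block on the column number, 13 of the 40 rose and 0 fell, against 9.72% of all tested genes, 3.93% higher and 5.79% lower, and the median was 0.20. DESeq2 without the block called 1 of the 40, Ifit2, against 4.75% of the genes to which it gave an adjusted p.

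**Figure D2:**
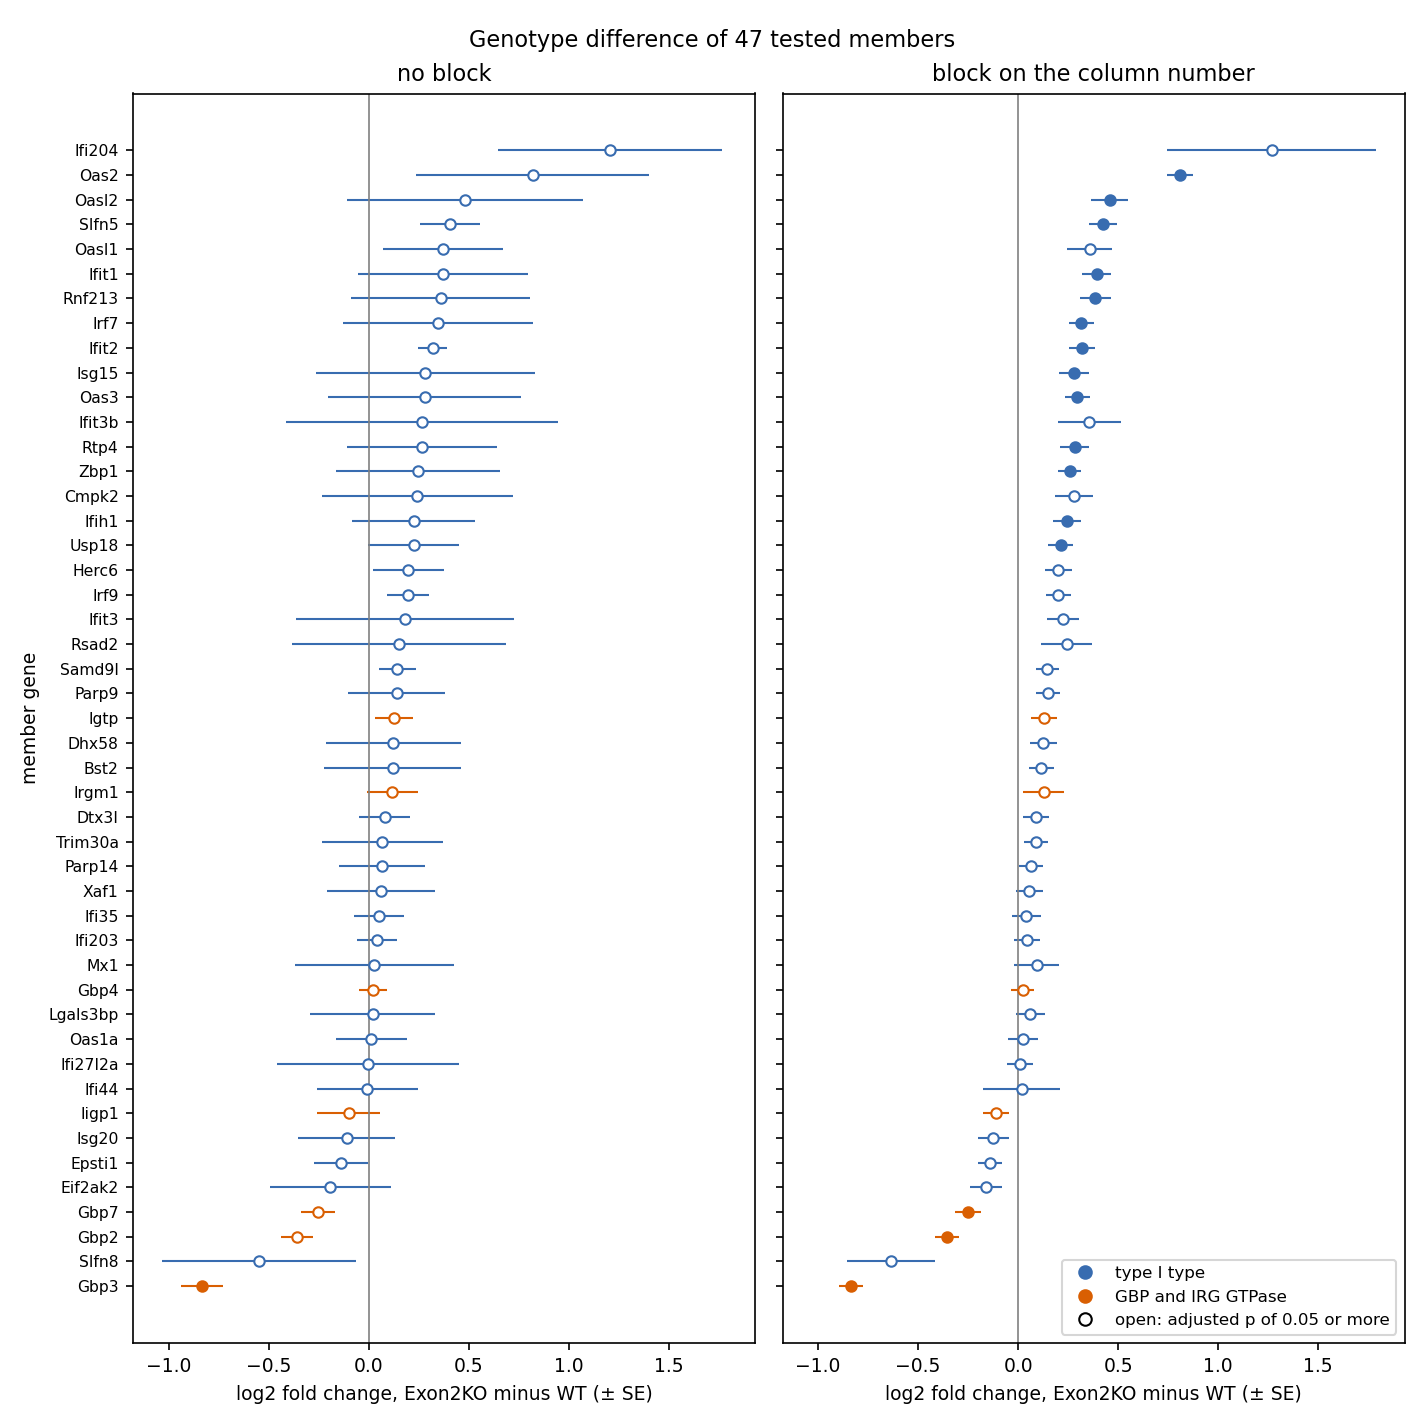
Log2 fold change of Exon2KO against WT with its standard error for the 47 tested genes, from the fit without (left) and with (right) the block on the column number; filled points passed the adjusted p of 0.05. Only Gbp3 is filled on the left, and 13 type I type genes above 0 and Gbp2, Gbp3 and Gbp7 below 0 are filled on the right.

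The 13 genes that rose with the block came from 8 of the 9 roles among the type I type genes. In the ISG15 system they were Isg15, a ubiquitin-like modifier, and Usp18, which removes it from proteins and dampens the type I receptor. Isg15 was at 29.0, 28.3 and 65.9 CPM in WT 2, 6 and 20. In Exon2KO it was at 34.6, 34.0 and 81.7 CPM. Exon2KO was the higher library of each pair, but the genotypes overlapped, because WT 20 stood above Exon2KO 2 and 6. The log2 fold change was 0.28 ± 0.074 (SE) with the block (adjusted p = 0.0264, edgeR, n = 3 per genotype) and 0.28 ± 0.55 without it (adjusted p = 0.927). Over 22 alternative fits, which varied the filter, scaling, tool, block or libraries, the value for Isg15 ran from -0.27 to 0.80 and changed sign in 1. Usp18 had a log2 fold change of 0.21 ± 0.064 with the block (adjusted p = 0.0477, edgeR), a call that was lost when upper-quartile scaling was used with the block. For Herc6, the ligase that attaches Isg15 to proteins in the mouse, the block gave 0.20 ± 0.069 (adjusted p = 0.0853, edgeR), which did not pass.

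Among the IFIT genes, whose products bind viral RNA ends, Ifit1 and Ifit2 rose with the block. Ifit1 was at 34.3, 35.3 and 71.2 CPM in WT 2, 6 and 20 and at 49.5, 44.9 and 88.5 CPM in Exon2KO 2, 6 and 20. It was higher in Exon2KO in every pair, with WT 20 above Exon2KO 2 and 6, and its log2 fold change with the block was 0.39 ± 0.073 (adjusted p = 0.00251, edgeR). Ifit2 was at 66.1, 68.8 and 73.5 CPM in WT and at 87.3, 85.0 and 87.9 CPM in Exon2KO. It did not follow the column number (adjusted p of the number term = 0.716, edgeR), and it was the 1 gene of the 40 whose genotypes did not overlap, against 17.7% of all tested genes. Its log2 fold change was 0.32 ± 0.074 without the block (adjusted p = 0.0632, edgeR) and 0.32 ± 0.064 with it (adjusted p = 0.00414).

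Ifit3 and Ifit3b did not pass for genotype in either fit. Ifit3 was at 33.1, 27.1 and 74.4 CPM in WT and at 43.4, 32.0 and 77.9 CPM in Exon2KO. Ifit3b ranged from 4.35 CPM in WT 6 to 18.5 CPM in Exon2KO 20, the highest rise with number 20 in WT among the 40. Of the stretches of 50 bases in the Ifit3 transcript, 51.2% also occur in Ifit3b, so the split of reads between these genes is uncertain. The IFIT genes lie next to each other on chromosome 19, from Ifit2 at chr19:34550694-34576419 to Ifit1 at chr19:34640871-34650009.

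**Figure D3:**
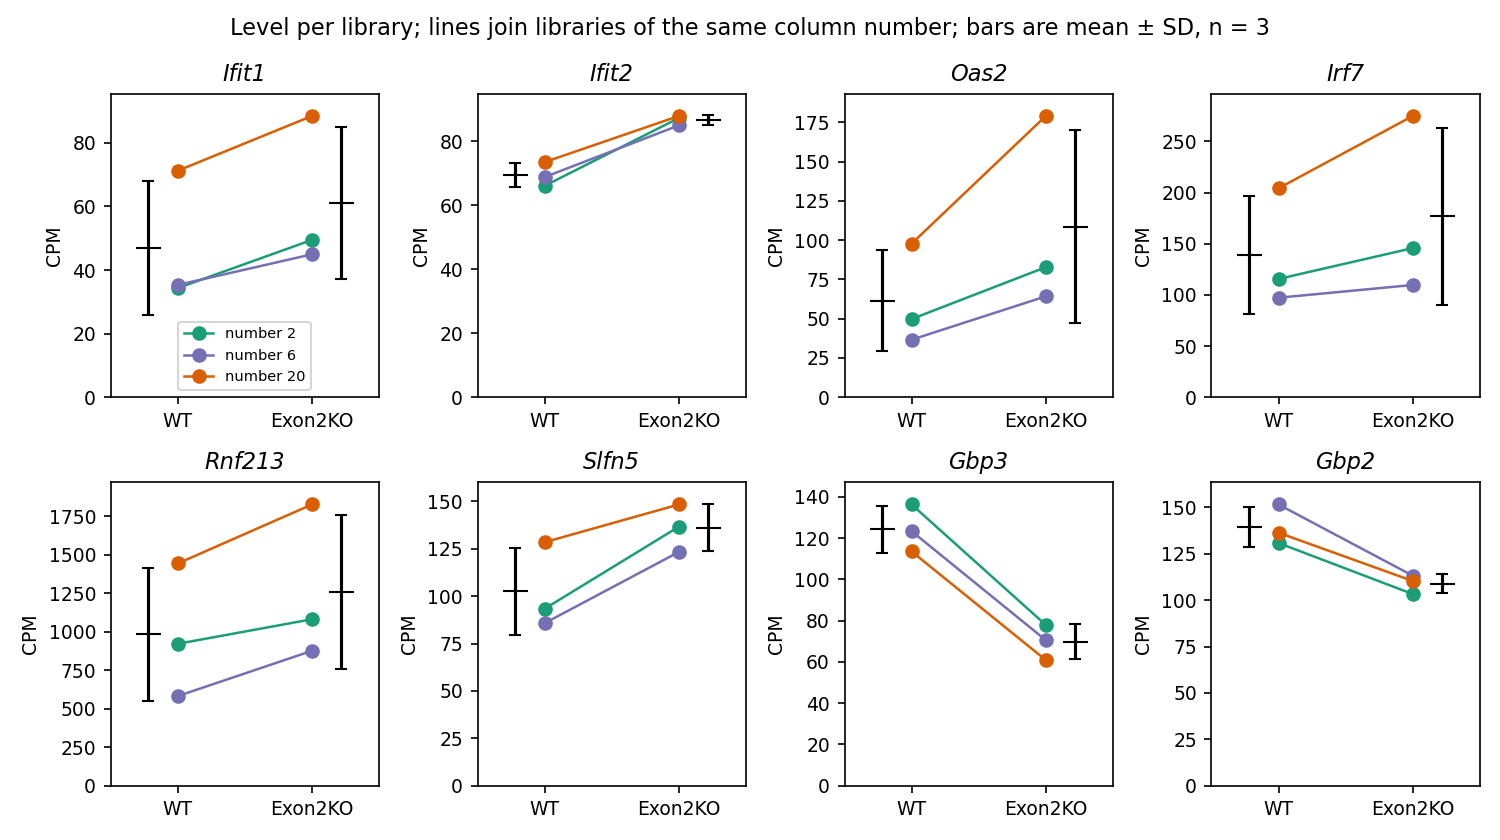
CPM of 8 genes in each library, with lines joining WT and Exon2KO libraries of the same column number and bars giving the mean ± SD of 3 libraries per genotype. In Ifit1, Oas2, Irf7 and Rnf213 the lines for number 20 lie above those for 2 and 6 in both genotypes, Ifit2 shows 3 nearly equal lines that rise, and Gbp3 and Gbp2 fall in every pair.

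The OAS genes encode oligoadenylate synthetases, which sense double-stranded RNA and make the activator of RNase L, and their relatives. Oas2, Oas3 and Oasl2 rose with the block. Oas2 (chr5:120730333-120749853, minus strand) was at 49.7, 36.6 and 97.7 CPM in WT 2, 6 and 20. In Exon2KO 2, 6 and 20 it was at 82.7, 64.2 and 179 CPM. Its pair ratios lay close together, at 0.73, 0.81 and 0.87 on the log2 scale, and the genotypes still overlapped. Oas2 had the smallest adjusted p of the 40 with the block (log2 fold change 0.81 ± 0.064, adjusted p = 1.04e-06, edgeR), while without it the value was 0.82 ± 0.58 (adjusted p = 0.732). Over the 22 alternative fits its log2 fold change ran from 0.25 to 1.33.

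Oas3, the next gene along chromosome 5, was at 61.1, 47.97 and 116 CPM in WT and at 73.9, 62.1 and 138 CPM in Exon2KO. Its log2 fold change with the block was 0.30 ± 0.063 (adjusted p = 0.00656, edgeR). Oasl2 was at 25.7, 16.5 and 46.2 CPM in WT and at 30.0, 24.1 and 69.8 CPM in Exon2KO, a log2 fold change of 0.46 ± 0.093 (adjusted p = 0.00447, edgeR with the block). Both were higher in Exon2KO in all 3 pairs, and both overlapped between genotypes, Oas3 through WT 20 alone and Oasl2 also through WT 2, which stood above Exon2KO 6. Oasl1, known to restrain Irf7, was at a log2 fold change of 0.36 ± 0.11 (adjusted p = 0.0577, edgeR with the block) and did not pass. Oas1a was at 51.3, 39.1 and 61.8 CPM in WT and at 54.2, 42.2 and 57.4 CPM in Exon2KO, and 57.6% of its stretches of 50 bases also occur in another gene, mainly Oas1g.

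Of the 6 genes for nucleic acid sensors and the RNA-activated kinase, 2 rose with the block, against 3.93% of all tested genes. They were Ifih1 (MDA5, a sensor of long double-stranded RNA) and Zbp1 (a sensor of Z-form nucleic acid that triggers necroptosis). Their log2 fold changes were 0.24 ± 0.068 and 0.26 ± 0.058 (adjusted p = 0.0338 and 0.00986, edgeR). Dhx58, the regulator of RNA sensing known as LGP2, was at 0.13 ± 0.067. Eif2ak2, the kinase PKR, lay below 0, at -0.16 ± 0.080, and neither gene passed. Ifi203, the most abundant of them per length, was nearly level: 423, 451 and 520.4 CPM in WT and 434, 501 and 501 CPM in Exon2KO. It overlaps Mndal on the same strand over 22085 bases, so reads may be shared. Ifi204 had the highest log2 fold change of the 40, 1.21 ± 0.56 (adjusted p = 0.439, edgeR without the block), on 0.430, 0.165 and 0.798 CPM in WT and 0.722, 1.38 and 1.18 CPM in Exon2KO. They rest on 3 to 27 counts per library, and WT 6 was at the limit of 3 counts.

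Irf7, the transcription factor that amplifies type I interferon production, was at 116, 97.2 and 204 CPM in WT 2, 6 and 20 and at 146, 109.7 and 275 CPM in Exon2KO. It rose with the block by a log2 fold change of 0.32 ± 0.063 (adjusted p = 0.00427, edgeR). WT 20 stood above Exon2KO 2 and 6, and the value without the block was 0.35 ± 0.48 (adjusted p = 0.889). Over the 22 alternative fits it ran from -0.13 to 0.73 and changed sign in 1. Irf7 overlaps Phrf1 on the opposite strand by 45 bases. Irf9, the DNA-binding subunit of the type I complex, was higher in Exon2KO in all 3 pairs, at a log2 fold change of 0.20 ± 0.061 with the block (adjusted p = 0.0523, edgeR), which did not pass.

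Of the 7 other antiviral effectors, 6 followed the column number, against 10.4% of all tested genes, and 1, Rnf213, rose with the block, against 3.93%. Rnf213, a very large ubiquitin ligase that coats intracellular pathogens, was at 922, 582 and 1444 CPM in WT 2, 6 and 20. In Exon2KO 2, 6 and 20 it was at 1081, 876 and 1827 CPM. It was higher in Exon2KO in each pair by a log2 fold change of 0.39 ± 0.077 (adjusted p = 0.00398, edgeR with the block), and the genotypes overlapped. Bst2 (tetherin, which holds budding virus at the membrane) was at 78.0, 82.1 and 137 CPM in WT and at 89.3, 82.3 and 152 CPM in Exon2KO. Number 20 was the high library in both genotypes, and the genotypes were close within each number. Mx1, an antiviral GTPase outside the GBP and IRG families, Rsad2 (viperin), Cmpk2, a nucleotide kinase and neighbour of Rsad2, Isg20, an RNA exonuclease, and Samd9l, a regulator of translation, lay between -0.12 and 0.28 on the log2 scale with the block, and none passed.

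Parp14, Parp9 and Dtx3l, which place and read ADP-ribose and ubiquitin marks, passed for the column number in 3 of 3 and for the genotype with the block in 0 of 3, against 10.4% and 9.72% of all tested genes. Parp14 was at 315, 299 and 446 CPM in WT and at 321, 319 and 471 CPM in Exon2KO. The genotypes overlapped, and the log2 fold change with the block was 0.066 ± 0.060. Parp9 and Dtx3l overlap by 682 bases on opposite strands. Of the Schlafen genes, which restrain growth and viral translation, Slfn5 rose with the block and Slfn8 lay lower. Slfn5 was at 93.4, 85.8 and 128 CPM in WT and at 137, 123 and 148 CPM in Exon2KO, a log2 fold change of 0.42 ± 0.071 (adjusted p = 0.00116, edgeR with the block).

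WT 20 alone overlapped the Exon2KO range of Slfn5, and without WT 20 the gene also passed with no block (0.60, adjusted p = 0.0216, edgeR). Slfn8 was at 3.92, 4.24 and 7.88 CPM in WT and at 2.28, 2.15 and 6.58 CPM in Exon2KO. It was lower in Exon2KO in each pair while sharing the rise in number 20, at -0.64 ± 0.22 with the block (adjusted p = 0.0893, edgeR). Slfn1 was not tested, having 0 to 3 counts in every library.

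Among the other 8 induced genes, 1 rose with the block, against 3.93% of all tested genes. This was Rtp4, a chaperone of membrane receptors, at a log2 fold change of 0.28 ± 0.071 (adjusted p = 0.0188, edgeR). Ifi27l2a, a small mitochondrial protein gene, was at 227, 218 and 463 CPM in WT and at 253, 206 and 446 CPM in Exon2KO. Number 20 stood at 2.08 times the mean of 2 and 6 in WT and 1.94 times in Exon2KO, while the log2 ratios between genotypes within a number were 0.16, -0.08 and -0.05. Epsti1, an interferon-induced gene, was lower in Exon2KO in each pair, at -0.14 ± 0.058 with the block (adjusted p = 0.169, edgeR). Lgals3bp, Trim30a, Xaf1 and Ifi35 lay between 0.042 and 0.089 with the block. Ifi44 was at 3.94 CPM in WT 20 and 5.06 CPM in Exon2KO 20, below every library numbered 2 or 6, unlike the genes above.

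Levels per gene length, as CPM per kilobase of the deposited gene length averaged over all 6 libraries, put Ifi27l2a at the top of the 48 at 653. Bst2 at 115, Igtp at 112, Ifi203 at 70.4, Rnf213 at 66.4 and Isg15 at 64.8 CPM per kilobase followed. Bst2 and Igtp did not differ beyond their spread, with 109.8 ± 36.7 and 107 ± 11.3 CPM per kilobase in WT (SD, n = 3), nor did Ifi203, Rnf213 and Isg15, with 69.3 ± 7.501, 58.2 ± 25.7 and 58.4 ± 30.6. At the low end stood Slfn8 at 1.10, Ifi44 at 0.936, Ifi204 at 0.219 and Slfn1 at 0.0281 CPM per kilobase. Of the 6 most abundant, Ifi27l2a, Bst2, Rnf213 and Isg15 passed edgeR's test of the column number (adjusted p = 3.44e-07, 3.14e-06, 2.40e-06 and 1.72e-07), and Igtp and Ifi203 did not (0.204 and 0.115).

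The rise in the libraries numbered 20 was steep in several genes that answer type I interferon. Ratios of number 20 to the mean of 2 and 6 were 2.30 in WT and 2.38 in Exon2KO for Isg15, 2.27 and 2.44 for Oas2, and 1.92 and 2.15 for Irf7. The exceptions among the 40 were Ifit2, Ifi203, Samd9l, Irf9, Ifi35, Ifi44 and Ifi204, which did not pass the test of the number term. Of the 40 genes, 12 passed for both terms, against 2.46% of all tested genes. The column number alone passed for 21, against 7.99%, and the genotype with the block alone for 1, Ifit2, against 7.26%. Whether the numbers stand for an animal, a litter or a day is not stated.

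**Figure D4:**
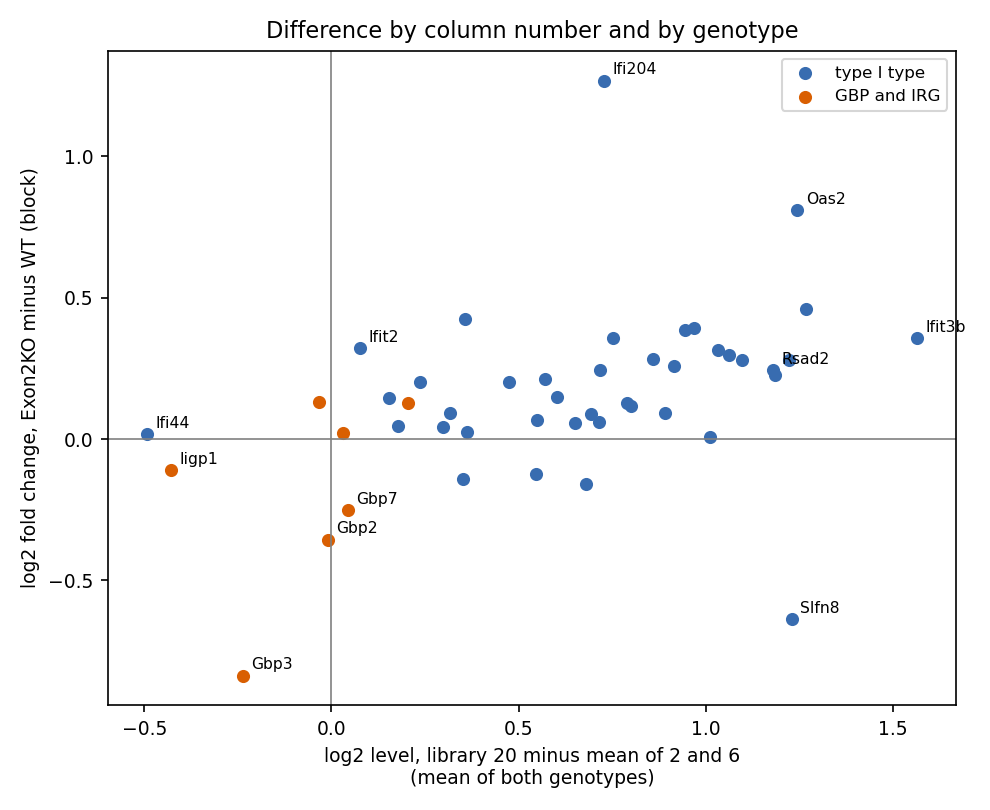
Each point is 1 of the 47 tested genes; the horizontal axis is the log2 level of number 20 minus the mean of 2 and 6, averaged over both genotypes, and the vertical axis the log2 fold change of Exon2KO against WT with the block. Type I type genes spread to the right, with 36 of the 40 above 0 on the vertical axis, while Gbp3, Gbp2 and Gbp7 lie below 0 near the vertical line.

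Markers of other cells moved with the column number too. Of 12 myeloid markers, 10 were tested, and 4 of them passed the number term: Lyz2, S100a8, S100a9 and Mpeg1. The number term passed for 3 of 7 T cell, 2 of 7 CD8 and NK, 2 of 3 erythroid and platelet, 1 of 5 plasmacytoid dendritic (Bst2), 0 of 8 B cell and 0 of 3 stromal markers tested, against 10.4% of all tested genes. Of the 10 tested myeloid markers 7 were higher in number 20 than the mean of 2 and 6 in WT, and 7 in Exon2KO. Adgre1, Cd68 and Ctss were the 3 lower ones in both, at -0.29, -0.30 and -0.14 on the log2 scale in WT and at -0.11, -0.02 and -0.03 in Exon2KO. Counted the same way, in WT and Exon2KO in turn, 7 and 5 of 7 T cell markers were higher in number 20. The counts were 5 and 4 of 8 for B cell and 5 and 4 of 7 for CD8 and NK markers. For plasmacytoid dendritic markers they were 2 and 2 of 5, for erythroid and platelet 0 and 1 of 3, and for stromal 3 and 2 of 3. S100a9, a neutrophil and monocyte gene, was at 3.44, 3.30 and 21.8 CPM in WT 2, 6 and 20 and at 2.67, 2.10 and 15.6 CPM in Exon2KO. Lyz2, the lysozyme of macrophages and neutrophils, was at 11.9, 16.1 and 28.5 CPM in WT and at 9.78, 10.3 and 23.1 CPM in Exon2KO. The summed myeloid level was 328 to 357 CPM in WT and 285 to 326 CPM in Exon2KO, most of it Ctss, and Cd14 stayed under 0.5 CPM in all 6. Plasmacytoid dendritic markers other than Bst2, which is a member of the list, summed to 22.6 to 30.3 CPM, most of it Ccr9. Siglech among them was at 0.752, 0.771 and 0.892 CPM in WT and at 0.500, 0.308 and 0.113 CPM in Exon2KO, with no overlap, and did not pass (adjusted p = 0.337, edgeR; 0.146 with the block). B cell markers summed to 34.9 to 35.7 CPM in WT and 27.96 to 30.3 CPM in Exon2KO. Cd79b, at 20.5 to 22.9 CPM in WT and 14.0 to 16.9 CPM in Exon2KO, carried that difference. CD8 and NK markers summed to 34.6 to 42.4 CPM in WT and 36.6 to 73.9 CPM in Exon2KO, the highest being Exon2KO 6. Erythroid and platelet markers summed to 3.32 to 15.7 CPM over all libraries and were lowest in number 20 of each genotype. Stromal markers summed to 165 to 191 CPM in WT and 189 to 225 CPM in Exon2KO, nearly all of it Pecam1, with Col3a1 and Ccl21a at 0 in all libraries. For genotype with the block, 1 of 8 B cell, 1 of 10 myeloid and 1 of 3 stromal markers passed, and 0 on the CD8 and NK, plasmacytoid dendritic, and erythroid and platelet lists, against 9.72% of all tested genes. Cd79b and Lyz2 were lower, at -0.51 and -0.40 on the log2 scale (adjusted p = 0.00501 and 0.0413, edgeR), and Pecam1 was higher, at 0.23 (adjusted p = 0.0164), and without the block the adjusted p of these 3 was 0.0828, 0.865 and 0.317. The part of these cells in the interferon pattern was not tested.

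Of the 7 GTPases, Gbp3, Gbp2 and Gbp7 on chromosome 3 fell with the block, against 5.79% of all tested genes, and the other 4 did not pass. Gbp3 was the 1 of the 48 genes that passed without the block, or 2.13% of the 47 tested, close to the 2.33% of all tested genes. Gbp3 (ENSMUSG00000028268, chr3:142560026-142573209, plus strand, in the files' mm10 coordinates) was at 136, 123 and 114 CPM in WT 2, 6 and 20. In Exon2KO 2, 6 and 20 it was at 77.9, 70.5 and 60.9 CPM. Every Exon2KO library lay below every WT library, and the level was 0.561 times that in WT (log2 fold change -0.83 ± 0.11, adjusted p = 0.00475, edgeR, n = 3 per genotype; with the block -0.84 ± 0.061, adjusted p = 5.06e-07). The call held without any 1 library and was lost without both libraries numbered 2 (adjusted p = 0.166, edgeR) or both numbered 6 (adjusted p = 0.0932), where the log2 fold change was -0.85.

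Gbp2 and Gbp7, its neighbours, had the same direction. Gbp2 (chr3:142620602-142638008) was at 131, 152 and 136 CPM in WT and at 103, 113 and 110.3 CPM in Exon2KO, with no overlap. It fell by 0.36 ± 0.059 on the log2 scale with the block (adjusted p = 0.000904, edgeR) and missed the threshold without it (adjusted p = 0.0585). Gbp7 (chr3:142530342-142550149) was at 215, 189 and 226 CPM in WT and at 181, 178 and 169.7 CPM in Exon2KO, again with no overlap, and fell by 0.25 ± 0.067 with the block (adjusted p = 0.0266, edgeR; 0.212 without it). Of the GTPases 3 of 7 had no overlap between genotypes, against 17.7% of all tested genes. Few stretches of 50 bases in Gbp2 and Gbp3 also occur in other genes (2.07% and 4.79%). In Gbp7 12.8% do, mainly in Gm43802, which overlaps Gbp7 by 637 bases on the same strand and had 0 counts.

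The other 4 GTPases did not pass for genotype. Gbp4, on chromosome 5, was the flattest: 279, 268 and 288 CPM in WT and 287, 281 and 281 CPM in Exon2KO. Igtp (Irgm3), a regulatory IRG protein, was at 192, 237 and 221 CPM in WT and at 233, 252 and 224 CPM in Exon2KO, higher in Exon2KO in each pair by a log2 fold change of 0.13 ± 0.064 with the block (adjusted p = 0.262, edgeR). Irgm1, another regulatory IRG protein, was at 0.13 ± 0.10, and Iigp1, an effector that coats parasite vacuoles, at -0.11 ± 0.064. Igtp overlaps Irgm2 and Gbp4 overlaps Gbp8 and Gbp9 on the same strand, so reads in those genes may be shared. Of the 7, 4 were lower in all 3 pairs, against 20.9% of all tested genes, and 1 was higher, against 21.4%, and the median log2 fold change was -0.10. That median was 0.022 without Exon2KO 20, -0.029 without WT 2, -0.064 without WT 6, -0.18 without Exon2KO 6, and -0.20 without either Exon2KO 2 or WT 20.

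The 48 genes held 22 in 8 clusters with gaps under 500 kb, and 26 that stood alone. Since Gbp3, Gbp2 and Gbp7 are neighbours, the GBP genes outside the list were set beside them by chromosome, a grouping chosen after their values were seen. The 4 genes of chromosome 3 (Gbp5, Gbp7, Gbp3 and Gbp2, chr3:142493978-142638008) had log2 fold changes of -0.83 to -0.25, none overlapped between genotypes, 2 fell without the block and 4 with it. Over all tested genes 17.7% had no overlap, 1.58% fell without the block and 5.79% with it. The 6 genes of chromosome 5 (Gbp8, Gbp9, Gbp4, Gbp10, Gbp6 and Gbp11, chr5:105014150-105346472) ranged from -0.20 to 1.84, with 1 that had no overlap, 0 that fell and 1 that rose without the block, and 1 of each with it. Gbp11 was the gene that rose, at 2.26, 3.19 and 2.02 CPM in WT and 9.17, 8.16 and 9.34 CPM in Exon2KO, 3.57 times higher (log2 fold change 1.84 ± 0.23, adjusted p = 0.00467, edgeR). Of its stretches of 50 bases 19.2% also occur in other genes, mainly Gbp8. Gbp5, which promotes inflammasome assembly, was at 110.0, 117 and 111 CPM in WT and at 88.9, 89.1 and 77.0 CPM in Exon2KO (log2 fold change -0.41 ± 0.082, adjusted p = 0.0353, edgeR). Leaving out any 1 of the 6 libraries took Gbp5 past the threshold, with adjusted p of 0.0611 to 0.122.

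**Figure D5:**
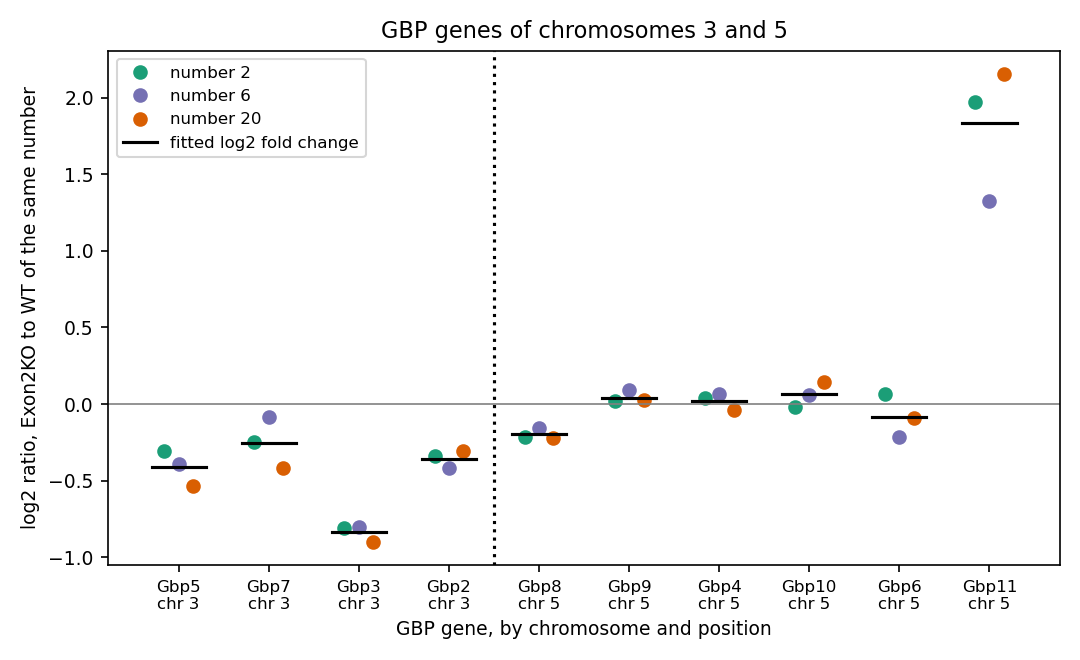
Log2 ratio of Exon2KO to WT within each column number (points) and fitted log2 fold change without the block (bars) for the 10 GBP genes, ordered by chromosome and position, with chromosome 3 left of the dotted line. All 12 points of the 4 genes on chromosome 3 lie below 0, and on chromosome 5 Gbp11 stands at 1.32 to 2.15 while the other genes lie between -0.22 and 0.14.

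The pathway around these genes was followed with a list of 108 other genes, of which 91 were tested. Without the block 6 of the 91 passed, 3 higher and 3 lower, and with it 24 passed, 14 higher and 10 lower, beside 2.33% and 9.72% of all tested genes. Of the 12 ligand genes 11 were too low to test, and Ifnb1 and the 5 Ifna genes on the list were at 0 counts in all 6 libraries. Ifng, the gene of interferon gamma, was at 3.49, 4.90 and 5.02 CPM in WT and at 4.001, 12.3 and 2.25 CPM in Exon2KO, where Exon2KO 6 stood high and Exon2KO 20 low and the genotypes overlapped. With the block 3 of 5 receptor genes, 1 of 6 kinases and signal transducers, 3 of 7 interferon regulatory factors, 1 of 12 sensing genes and adaptors, 0 of 6 feedback genes and 4 of 10 other GTPases passed.

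Of the 5 tested interferon receptor genes 1 rose and 2 fell with the block, against 3.93% and 5.79% of all tested genes. Without it 1 rose and 1 fell, against 0.757% and 1.58%. Ifngr1, the ligand-binding chain for interferon gamma, was at 208, 207 and 210.0 CPM in WT and at 172, 159.6 and 163 CPM in Exon2KO, with no overlap (log2 fold change -0.34 ± 0.069, adjusted p = 0.0382, edgeR). Ifngr2, its signalling partner, was at 45.8, 50.7 and 40.6 CPM in WT and at 66.7, 67.3 and 60.1 CPM in Exon2KO, also with no overlap (0.50 ± 0.099, adjusted p = 0.0339). Both calls were lost when single libraries were left out. Ifngr1 missed the threshold without any 1 of the 6 (adjusted p = 0.0884 to 0.124, edgeR), and Ifngr2 missed it without WT 2, WT 20, Exon2KO 2 or Exon2KO 6 (0.0839 to 0.184). Ifnar1, a chain of the type I receptor, was at 263, 232 and 259 CPM in WT and at 249.7, 235 and 269 CPM in Exon2KO, and the genotypes overlapped.

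Of the kinases and signal transducers outside the list 1 of 6, the kinase Jak2, rose with the block (log2 fold change 0.27 ± 0.069, adjusted p = 0.0203, edgeR), against 9.72% of all tested genes called in either direction. Stat2 was at 163, 139 and 219 CPM in WT and at 179, 147 and 237 CPM in Exon2KO, and passed the number term (adjusted p = 3.51e-05, edgeR), as most of the type I type genes did. Irf1, induced mainly by interferon gamma, was at 219, 221 and 229 CPM in WT and at 236, 220.1 and 249.9 CPM in Exon2KO, with overlap.

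Irf5, a factor best known from myeloid and B cells, was the 1 of 7 factors outside the list that fell without the block, against 1.58% of all tested genes. It was at 24.2, 28.1 and 26.4 CPM in WT and at 9.11, 11.4 and 7.76 CPM in Exon2KO, 0.360 times the WT level (log2 fold change -1.47 ± 0.16, adjusted p = 0.00253, edgeR). It overlaps Tnpo3 by 1045 bases on the opposite strand, and Tnpo3, whose log2 fold change was -0.0028, had 537% of the counts of Irf5. The summed myeloid and B cell markers, mostly Ctss and Cd79b, were lower in Exon2KO, and their part in the value of Irf5 was not tested. With the block Irf4 and Irf8 fell as well, by 0.34 ± 0.069 and 0.33 ± 0.0795 (adjusted p = 0.00455 and 0.015, edgeR). That made 3 of 7 lower with the block, against 5.79% of all tested genes.

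Of the 10 other GBP and IRG genes 3 passed without the block, 2 higher and 1 lower, against 2.33% of all tested genes, 0.757% higher and 1.58% lower. Besides Gbp11 and Gbp5 this was Tgtp1, an IRG protein, at 28.2, 30.1 and 27.5 CPM in WT and 42.0, 45.3 and 38.3 CPM in Exon2KO (log2 fold change 0.55 ± 0.099, adjusted p = 0.0226, edgeR). Its stretches of 50 bases are shared with other genes, mainly Tgtp2, in 91.4%, and its call was lost without any 1 library except Exon2KO 20 (adjusted p = 0.0589 to 0.124, edgeR). Of 44 tested induced genes outside the list, 0 passed without the block, where edgeR gave 7 an unadjusted p under 0.05, against 12.1% of all tested genes, and 12 passed with it, 9 higher and 3 lower, against 9.72% of all tested genes. One of those 9 was Ifit1bl1, an IFIT relative, at 103, 109 and 129 CPM in WT and at 146, 137 and 186 CPM in Exon2KO. Among 12 tested sensing genes and adaptors the 1 that rose with the block was Ddx58 (RIG-I, an RNA sensor as Ifih1 is). It was at 113, 101 and 159.8 CPM in WT and at 153, 138 and 189 CPM in Exon2KO. Both were higher in Exon2KO in every pair and higher in number 20, and were named after their values were seen.

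The authors' deposited table, which compares the same groups, called 3 of the 48: Gbp3 and Gbp2 lower and Ifit2 higher, against 2.55% of the 24985 genes with an adjusted p there. In that table Gbp3 stood at -0.83 (log2 fold change; adjusted p = 8.16e-09), Gbp2 at -0.36 (adjusted p = 0.0228) and Ifit2 at 0.32 (adjusted p = 0.0419).

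The calls made with the block depended on the pairs. Without both libraries numbered 2, 3 of the 48 genes passed with the block (Gbp3, Oas2 and Oasl2), against 1.83% of all tested genes. Without both numbered 20, where 6.03% of all tested genes passed, there were 9, all among the 16 called with all libraries: Gbp2, Gbp3, Ifit1, Ifit2, Oas2, Oas3, Rnf213, Slfn5 and Zbp1. Without both numbered 6, where 9.47% passed, there were 14, of which 13 were among the 16. The other was Eif2ak2, a type I type gene that fell there (log2 fold change -0.29, adjusted p = 0.0145, edgeR with the block). Gbp3 and Oas2 passed in each of these fits.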

How the data were processed

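RNA-seq counts of 3 WT and 3 Exon2KO Treg libraries came from 1 deposited table. Per the labels' protocols, column-purified RNA was made into libraries with an Illumina kit. The submitters' processing notes name HISAT2 2.0.5, StringTie 1.3.3b, featureCounts 1.5.0-p3, DESeq2 1.16.1 and mm10. The strand setting and annotation release are not given in the sources used here. Per the file headers, the authors deposited whole-number counts per gene, group means as a scaled count signal, and a log2 fold change, p-value and adjusted p-value per gene. Counts of genes that share sequence or overlap can be split or lost in such counting, and without strand, antisense reads cannot be told apart.

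Columns name the genotype and a number, not a labelled replicate, so libraries were assigned to genotypes only. Counts were tested with edgeR 4.0.16 (R 4.3.3, filterByExpr, TMM, robust quasi-likelihood, Benjamini-Hochberg), without a block and with a block on the column number; the number term was an F test in the second fit. The standard error is the absolute log2 fold change over the root of F. Levels between genes were compared as counts per scaled library size (CPM) per kilobase of the deposited gene length, in place of the FPKM that the gene choice was first written for; the 6 per-sample FPKM columns were not used here. Log2 levels for pair ratios used a prior count of 2. Both fits were tested on simulated data, where the fit with the block recovered more of the changed genes and made more false calls than the fit without it, above the share its threshold allows. The pairing of libraries comes from the numbers in the column names. Same-numbered deviations correlated at 0.271 (2), 0.369 (6) and 0.494 (20). Libraries of unlike number were not correlated, and deviations within a genotype are not independent, so these values do not establish the pairing. Alternatives were other filters, scalings and tools (DESeq2 1.42.0, limma 3.58.1), single libraries and pairs left out.

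The genes, roles and lists were chosen with earlier results of these data known. Described with values in every library are genes called without the block, the 10 with the smallest adjusted p among those called with it, the highest level per kilobase in each role, and the highest and lowest log2 fold change on each side. From the pathway list these are Stat2, Irf1, Ifnar1, Ifngr1 and the genes called without the block; 1 further gene of that rule is not reported here. Others with per-library values, such as Gbp7, Gbp4, Ifng and the markers, were added after their values were seen.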

Additional observations from a re-analysis of the deposited data

How the results depend on the processing

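Without the block edgeR called 348 genes, 0 of the 48 higher and 1 lower. The replicate block on the column number called 1450 genes, with 13 of the 48 higher and 3 lower, and the blocked median of the type I type genes was 0.20. With the block, RLE scaling gave 1463 genes, 13 higher and 3 lower, and upper-quartile scaling 1413, 12 and 3. With the block and without both libraries numbered 2, 2 of the 48 were higher. Without both numbered 6 the block gave 1441 genes, 10 higher and 4 lower, and without both numbered 20 it gave 900, 7 and 2. Those last medians were 0.18 over all tested members and 0.22 over the type I type genes, the same to 2 decimals as without both numbered 20 and no block, where 1 was higher. Without the block, no count filter called 617 genes and DESeq2 667, with 1 higher. A minimum of 10 counts in every library called 321 genes and upper-quartile scaling 347, also without the block. Of the 48, 2 were lower in each of these 4 fits. Leaving out both libraries numbered 2 left 2 genes called, 0 lower and a median of 0.093, and leaving out both numbered 6 left 46 and 0. Fits without the block that left out 1 library called 86 to 314 genes, 0 to 1 of the 48 higher and 1 in each case lower. Their medians ran from -0.11 to 0.38 over all tested members, from -0.12 to 0.43 for the type I type genes and from -0.20 to 0.022 for the GTPases, each crossing 0 without Exon2KO 20. The cause of these moves was not tested.

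Over the alternatives, 22 for each named gene except Ifi204 with 21, 16 of the 30 named genes kept their sign. Ifi27l2a changed sign in 10, and Isg15, Irf7, Oas3, Oasl2 and Rnf213 in 1 each. The fits estimated a between-library variation (common BCV) of 17.3%, or 8.56% once blocked. Slfn1, at 0 to 3 counts, was too low to test. Counting intervals and limits cover counting error only.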

Other observations

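Trim12a, a relative of the retroviral restriction factor Trim5, was at 60.5, 121 and 112 CPM in WT 2, 6 and 20 and at 79.8, 147 and 147 CPM in Exon2KO 2, 6 and 20. Number 2 was low in both genotypes while numbers 6 and 20 were alike, and the number term had an adjusted p of 1.22e-06 (edgeR, Benjamini-Hochberg). Trim30d was at 28.2, 49.9 and 83.3 CPM in WT and at 26.7, 50.5 and 65.6 CPM in Exon2KO, lowest in number 2 and highest in number 20. Trim30a, one of the 48, was at 149, 176 and 279 CPM in WT and at 166, 195 and 273 CPM in Exon2KO, also highest in number 20. These genes were picked after their values were seen.

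Ly6c1 and Ly6c2, neighbouring interferon-responsive surface genes, moved in opposite directions with the column number. Ly6c1 was at 63.1, 78.8 and 38.1 CPM in WT and at 87.2, 93.9 and 66.4 CPM in Exon2KO, lowest in number 20 of each genotype. Ly6c2 was at 5.42, 5.56 and 17.8 CPM in WT and at 5.33, 5.23 and 19.1 CPM in Exon2KO, highest in number 20. Their number terms had adjusted p of 0.00295 and 3.39e-06 (edgeR, Benjamini-Hochberg). With the block Ly6c1 rose in Exon2KO (log2 fold change 0.50 ± 0.092, adjusted p = 0.00482, edgeR), and Ly6c2 was at 0.01. Stretches of bases shared between Ly6c1 and Ly6c2 were not counted, so the split of reads between them is uncertain. This pair, too, was picked after its values were seen.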
